A study of Rattus norvegicus with 48 samples.

Results

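The microRNAs rno-miR-103-3p and rno-miR-107-3p are a pair of closely related small RNAs, and their levels are described here across 4 segments of the rat kidney. They were taken by name, as 2 of the 188 mature miRNAs of the deposited table. The study cut segments from frozen kidney sections by laser capture, in which a laser lifts chosen structures off a slide, and sequenced the small RNA of each. Every group came from 6-month-old male rats of the Sprague-Dawley strain that had received no treatment, so that the groups differ by segment. The libraries were 3 of proximal tubule (PT), 2 of glomerulus, 3 of thick ascending limb of Henle's loop (TAL) and 3 of collecting duct (CD), from 3 rats, and each was sequenced on 4 flow cells. The glomeruli came from rats 1 and 3 by their labels. A further glomerulus library, which the submitters removed, is also labelled rat 3 and none is labelled rat 2, so the rat of the retained rat 3 library is uncertain, and with it the rat block and the differences given for rat 3. Tubules were recognised by antibody staining, of glutathione S-transferase in the PT, of Tamm-Horsfall protein in the TAL and of aquaporin-2 in the CD. Glomeruli were recognised by a histochemical stain. Each segment thus had its own stain, and the effects of segment and stain cannot be told apart in any comparison.

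A miRNA guides the silencing machinery to messenger RNAs that pair with its seed, a short stretch near its 5′ end, and lowers their output. miR-103 and miR-107 are made from introns of the pantothenate kinase genes, whose enzymes start the synthesis of coenzyme A, and in mouse liver and fat they are known as regulators of insulin sensitivity. The proximal tubule reabsorbs most of the filtered glucose, amino acids and salt and lives largely on fatty acid oxidation, the glomerulus is the filter, and the thick ascending limb and collecting duct adjust salt and water.

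The mature sequences, from the RefSeq annotation of the rat assembly GRCr8, are shown first because the pair can be told apart only near the 3′ end. Capitals mark the seed, bases 2 to 8 from the 5′ end. miR-103-3p is listed at chr3:138963278-138963300 on the plus strand, with a second copy of its hairpin on chromosome 10, and miR-107-3p at chr1:241750431-241750453 on the minus strand.
rno-miR-103-3p: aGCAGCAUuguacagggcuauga
rno-miR-107-3p: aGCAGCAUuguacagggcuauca
Both have 23 bases, of which 22 are identical, and the difference is G22C, with positions counted from 1 at the 5′ end and the miR-103-3p base given first. The seed is therefore the same. Among the 172 columns of the table that matched a RefSeq mature sequence, these were the 2 with this seed, as they were among all 693 mature sequences of the RefSeq table. A read that ended before position 22 could not be given to either by its sequence. How such reads were counted is not given in the sources used here, so the split between the pair is uncertain, and values of their sum are also given.

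The hairpin precursors show where the pair comes from, with the mature miRNA in capitals at bases 52 to 74 of each. Mir103a1 lies at chr10:20748474-20748559 on the plus strand within Pank3, Mir103a2 at chr3:138963227-138963312 on the plus strand within Pank2, and Mir107 at chr1:241750418-241750504 on the minus strand within Pank1.
Mir103a1: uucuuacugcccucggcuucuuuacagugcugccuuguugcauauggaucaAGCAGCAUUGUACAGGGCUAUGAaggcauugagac
Mir103a2: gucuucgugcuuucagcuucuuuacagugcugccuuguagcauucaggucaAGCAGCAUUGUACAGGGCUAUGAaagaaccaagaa
Mir107: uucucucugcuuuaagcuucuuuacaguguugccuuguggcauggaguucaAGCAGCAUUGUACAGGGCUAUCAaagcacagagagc
Outside the mature part the precursors differ more. The 2 miR-103 hairpins were identical at 80.2% of aligned positions, Mir103a1 and Mir107 at 80.5%, and Mir103a2 and Mir107 at 83.0%. The table has 1 column for miR-103-3p, so its values cannot be divided between the Pank2 and Pank3 loci. The other arms of these hairpins are not analysed here.

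The reads behind the 188 miRNAs were estimated from the step between low values, which is the value of 1 read in a run, and ranged from 147996 to 1296995 per library. The glomerulus library of rat 3 had both the fewest reads and the lowest summed value, 77457, against 115865 to 255518 in the other libraries. No pair of libraries held identical values. Marker miRNAs, chosen with earlier results of these data known, were set beside the labels, summed over those measured. No marker of the TAL was listed, so that label was not checked. The PT markers (miR-192-5p and miR-194-5p, 2 of 3 listed) summed to 21130 to 26367 in the PT, 777 to 1424 in the glomerulus, 2181 to 4280 in the TAL and 1259 to 2340 in the CD. The CD markers (miR-31a-5p and miR-205) summed to 378 to 697 in the CD and to at most 63.1 elsewhere. The endothelial markers (both strands of miR-126a) summed to 4299 to 6290 in the glomerulus and to at most 3170 elsewhere. Of 3 listed markers of red blood cells, 0 were among the 188 miRNAs.

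Both miRNAs were highest in the PT and lowest in the glomerulus by their means, and miR-107-3p exceeded miR-103-3p in all 11 libraries. Values are TMM-normalized read counts (scaled by the authors with the trimmed mean of M-values), given as the mean over the 4 flow cells of a library. miR-103-3p had 167, 217 and 276 in the PT libraries of rats 1, 2 and 3, and 102 and 44.8 in the glomerulus libraries of rats 1 and 3. It had 98.6, 98.4 and 127 in the TAL and 123, 180 and 117 in the CD of rats 1, 2 and 3. The PT libraries lay above every glomerulus and TAL library, while the highest CD library, of rat 2, exceeded the lowest PT library. How many of all miRNAs had such an order was not counted. By the fitted difference, 131 of all 188 were higher in the PT than in the glomerulus and 127 than in the TAL. The means were 220 ± 54.5 in the PT (SD, n = 3), 73.7 ± 40.8 in glomeruli (n = 2), 108 ± 16.4 in the TAL (n = 3) and 140 ± 34.9 in the CD (n = 3).

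miR-107-3p had 311, 388 and 446 in the PT libraries of rats 1, 2 and 3, and 166 and 78.3 in the glomerulus libraries of rats 1 and 3. It had 203, 150 and 230 in the TAL and 228, 299 and 225 in the CD. The 3 PT libraries were above all 8 others, with the CD of rat 2 the nearest, and this too was not counted over all miRNAs. The means were 381 ± 67.4 in the PT (SD, n = 3), 122 ± 62.3 in glomeruli (n = 2), 194 ± 41.2 in the TAL (n = 3) and 251 ± 42.0 in the CD (n = 3). For both miRNAs the order of the means was PT, CD, TAL, glomerulus. In that order no difference between neighbouring segments passed in the main fit, on the values as deposited. After some other scalings, given below, the differences between PT and CD and between glomerulus and TAL passed.

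**Figure D1:**
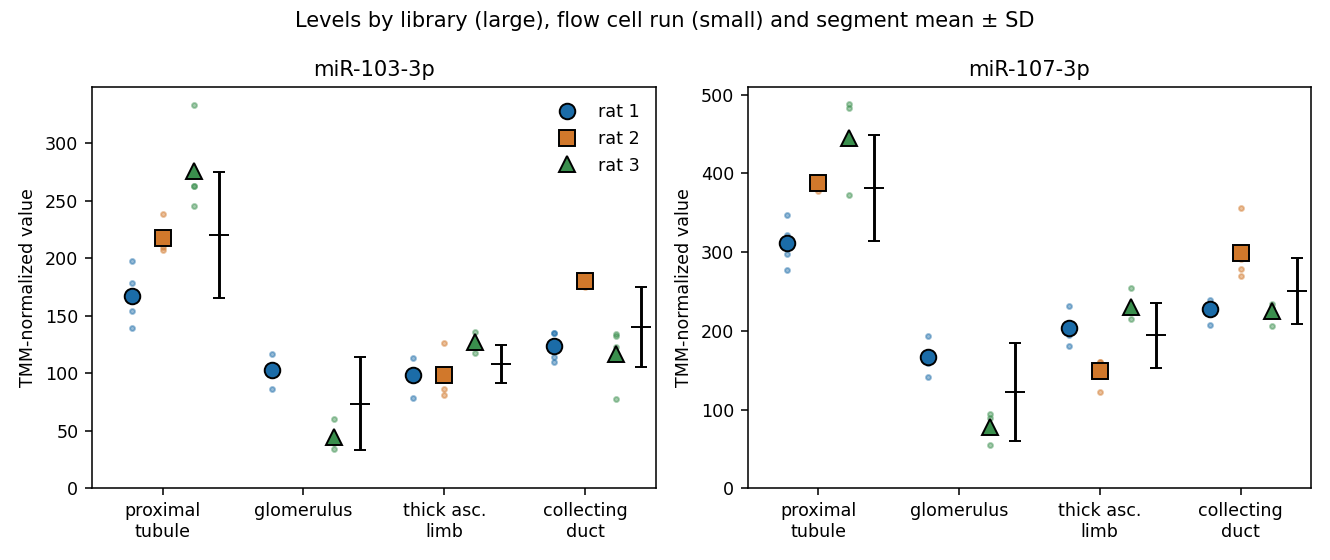
TMM-normalized values of miR-103-3p (left) and miR-107-3p (right) by segment, with large symbols for libraries (means over 4 flow cells, by rat), small points for single runs and bars for the segment mean ± SD over rats (n = 3, glomerulus n = 2). The PT libraries sit at 167 to 276 for miR-103-3p and 311 to 446 for miR-107-3p, and the glomerulus library of rat 3 is the lowest point in both panels.

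By the mean over the 4 segment means miR-107-3p ranked 45th and miR-103-3p 59th of the 188 miRNAs. Next to miR-107-3p in that order stood miR-200b-3p and miR-423-3p above it and miR-92b-3p and miR-25-3p below it. Next to miR-103-3p stood miR-429 and miR-23a-3p above it and miR-146b-5p and miR-672-5p below it. The neighbour miR-672-5p averaged 115 in the PT, 15.3 in the glomerulus, 112 in the TAL and 265 in the CD. miR-146b-5p averaged 168, 91.4, 135 and 120 in that order, highest in the PT and lowest in the glomerulus as the pair was. Of the 8 neighbours it was the one with its highest mean in the PT.

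The values rested on moderate read numbers. miR-103-3p had 87 reads in the glomerulus library of rat 3 and 1124 in the PT library of rat 2, its lowest and highest library. miR-107-3p had 141 and 1990 reads in the same libraries. Single runs held 8 to 378 reads of miR-103-3p and 22 to 601 of miR-107-3p, and in 44 of 44 runs the values of both were whole multiples of the step within 0.03 reads. Between flow cells the coefficient of variation was 24.6% for miR-103-3p and 22.8% for miR-107-3p in the glomerulus library of rat 3. In the PT library of rat 2 it was 6.51% and 2.31%.

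Tests used limma on log2(value + 1), with the rat as a block and Benjamini-Hochberg adjustment over the 188 miRNAs, and a call is an adjusted p below 0.05. By the F-test among the 4 segments, limma called 24.5% of all miRNAs (46 of 188) and neither member of the pair. The adjusted limma p was 0.181 for miR-103-3p (unadjusted 0.0731, ranked 76th) and 0.0924 for miR-107-3p (unadjusted 0.0270, ranked 55th). Their sum, entered as 1 feature, had an adjusted p of 0.0792 in limma. These p-values rest on a variance shared along the trend with abundance, since limma estimated no differences in variance beyond it. Without the block, where limma called 56 of 188 miRNAs, the adjusted limma p of miR-107-3p was 0.0286 and that of miR-103-3p 0.0620. Over the 15 other settings that kept all libraries, the adjusted limma p ran from 0.0381 to 0.323 for miR-103-3p. For miR-107-3p it ran from 0.00958 to 0.295, and for the sum from 0.00710 to 0.282. Fits without either glomerulus library, rat 1 or rat 3 had 1 glomerulus library left, and are not read as tests here.

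Between PT and glomerulus, miR-107-3p was 3.34-fold higher in the PT, a log2 difference of 1.74 ± 0.60 (SE) with a limma adjusted p of 0.0233 after Benjamini-Hochberg adjustment. In the main fit this was the 1 call of the pair among the comparisons of segments. In this comparison limma called 17.6% of all miRNAs in either direction and 13.8% as higher in the PT. Within rats by their labels, the log2 difference was 0.90 in rat 1 and 2.52 in rat 3. Without the block, which does not use the rat labels, it was 1.73 with a limma adjusted p of 0.00701. miR-103-3p gave 1.62 ± 0.65, or 3.07-fold, with a limma adjusted p of 0.0603, and 0.70 in rat 1 and 2.62 in rat 3. It passed in the fit without the block, at 1.67 with an adjusted limma p of 0.0172. In that fit limma called 35 of all 188 miRNAs higher in the PT and 9 lower, against 26 and 7 in the main fit. The median of all 188 miRNAs in this comparison was itself 0.77 on the log2 scale. That median became −0.037 when the rat 3 glomerulus library was left out and 1.64 when the rat 1 glomerulus library was, so it rested on which of them was used. In bulk samples of this kind, fewer cells of a type and less RNA per cell cannot be told apart.

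The call for miR-107-3p between PT and glomerulus depended on single libraries and on the fit. Its adjusted p in limma was 0.0895 without the PT library of rat 2, 0.169 without that of rat 3, 0.0543 without the TAL library of rat 1 and 0.111 without rat 2. It was 0.0963 with no variance trend, 0.155 with array weights and 0.130 on flow cell D alone. The direction was the same in each of these fits, and over all 14 fits that left out a library or a rat the difference lay between 1.02 and 2.49. For miR-103-3p that range was 0.74 to 2.46, and its difference passed without the glomerulus library of rat 1, at 2.38 with an adjusted limma p of 0.000374, and without rat 1, at 2.46 with 0.0268.

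Markers of other cell types are given for the same comparison, in which limma called 26 of all 188 miRNAs higher in the PT and 7 lower. The epithelial markers (the miR-200 family, 4 of 5 listed were measured) summed to 429 to 673 in the PT and 36.1 to 128 in the glomerulus, and limma called all 4 higher in the PT. The endothelial markers summed to 1249 to 1801 in the PT and 4299 to 6290 in the glomerulus, and limma called both lower in the PT. Those of mesangium, pericytes and smooth muscle (miR-143-3p and miR-145-5p) summed to 6119 to 8034 and 10382 to 16388 in the same order of segments. Markers of white blood cells, with 2 of 4 listed measured, summed to 24.1 to 51.6 in the PT and 78.7 to 117 in the glomerulus. Of the markers in each of these last lists, limma called 0. The part of any of these in the difference of the pair was not tested.

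The remaining comparisons with the PT gave differences of one direction that did not pass in the main fit. Against the TAL, where limma called 7.98% of all miRNAs, the log2 difference was 1.01 ± 0.56 for miR-103-3p (limma adjusted p 0.292, 95% interval −0.091 to 2.10). For miR-107-3p it was 0.98 ± 0.52 (limma adjusted p 0.275, interval −0.035 to 1.99). The PT was higher in 3 of 3 rats for both, by 0.76, 1.15 and 1.11 for miR-103-3p and 0.61, 1.38 and 0.94 for miR-107-3p in rats 1, 2 and 3. The groups did not overlap, and how many of all miRNAs did not was not counted. The median of all miRNAs here was 0.37. With the tubule libraries alone, a fit added after seeing the data, both passed, with limma adjusted p-values of 0.0477 for miR-103-3p and 0.0323 for miR-107-3p. In that fit limma called 34 of all 188 miRNAs higher in the PT and 5 lower, against 13 and 2 in the main fit. The fits without the glomerulus library of rat 1 or of rat 3 used the same tubule libraries with 1 glomerulus library left, and are not read as tests here.

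Against the CD, with 10.1% of all miRNAs called by limma, the PT was higher by 0.65 ± 0.56 for miR-103-3p and 0.60 ± 0.52 for miR-107-3p on the log2 scale, each with a limma adjusted p of 0.50. The 95% intervals ran from −0.44 to 1.75 and from −0.41 to 1.61. All 3 rats had the higher value in the PT, with differences of 0.43, 0.27 and 1.26 for miR-103-3p and 0.44, 0.38 and 0.98 for miR-107-3p in rats 1, 2 and 3. The groups overlapped for miR-103-3p and not for miR-107-3p, and overlap was not counted over all miRNAs.

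Between the segments outside the PT no difference of the pair passed in the main fit, though some passed after another scaling, given at the end. The glomerulus against the TAL (11.2% of all miRNAs called) gave −0.61 ± 0.65 for miR-103-3p and −0.76 ± 0.60 for miR-107-3p, with limma adjusted p-values of 0.673 and 0.508. In rat 1 the miR-103-3p values of these segments were nearly equal, with a log2 difference of 0.059, while in rat 3 it was −1.51. The sign for miR-103-3p turned to 0.15 without the glomerulus library of rat 3 and to 0.22 without rat 3. For miR-107-3p the difference was −1.42 without the glomerulus library of rat 1. In that fit 1 glomerulus library was left, and the median of all miRNAs was −1.19.

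The glomerulus against the CD (14.9% called) gave −0.96 ± 0.65 for miR-103-3p and −1.14 ± 0.60 for miR-107-3p, with limma adjusted p-values of 0.348 and 0.193. Neither miRNA overlapped between these groups, and how many of all miRNAs did not was not counted. Without the glomerulus library of rat 1 the differences were −1.73 and −1.80, with 1 glomerulus library left. The median of all miRNAs was −1.30 in that fit, against −0.61 in the main fit. The TAL against the CD (2.13% called) gave −0.35 ± 0.56 and −0.38 ± 0.52, with limma adjusted p-values of 0.862 and 0.841. The TAL was the higher in 1 of 3 rats for each miRNA.

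The size of these differences moved with the scaling between libraries. As shares of the summed values of a library, miR-107-3p took 0.209% to 0.223% in the PT, 0.1008% to 0.1010% in the glomerulus, 0.129% to 0.142% in the TAL and 0.117% to 0.124% in the CD. No segments overlapped, which was not counted over all miRNAs. The glomerulus libraries, more than 2-fold apart by value, were thus nearly equal by share. miR-103-3p took 0.112% to 0.131% in the PT, 0.0579% to 0.0621% in the glomerulus, 0.0689% to 0.0849% in the TAL and 0.0623% to 0.0705% in the CD, where the last pair overlapped. The sum of both took 0.321% to 0.348%, 0.159% to 0.163%, 0.208% to 0.214% and 0.182% to 0.191% in the same order. By mean share the TAL stood above the CD, the reverse of the order by value.

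miR-10a-5p, the most abundant miRNA, took 23.0% to 26.9% of the summed values in the PT, 18.1% to 22.8% in the glomerulus, 48.6% to 49.9% in the TAL and 43.7% to 50.5% in the CD. With miR-10a-5p left out of the sum, a choice made after seeing the data, miR-107-3p took 0.280% to 0.290% in the PT and 0.123% to 0.131% in the glomerulus, against 0.251% to 0.278% in the TAL and 0.213% to 0.251% in the CD. The PT and TAL then lay close together, and the glomerulus stood lowest. miR-103-3p took 0.150% to 0.179% in the PT, 0.0707% to 0.0804% in the glomerulus, 0.135% to 0.165% in the TAL and 0.111% to 0.135% in the CD, and the TAL overlapped both of the other tubule segments.

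**Figure D2:**
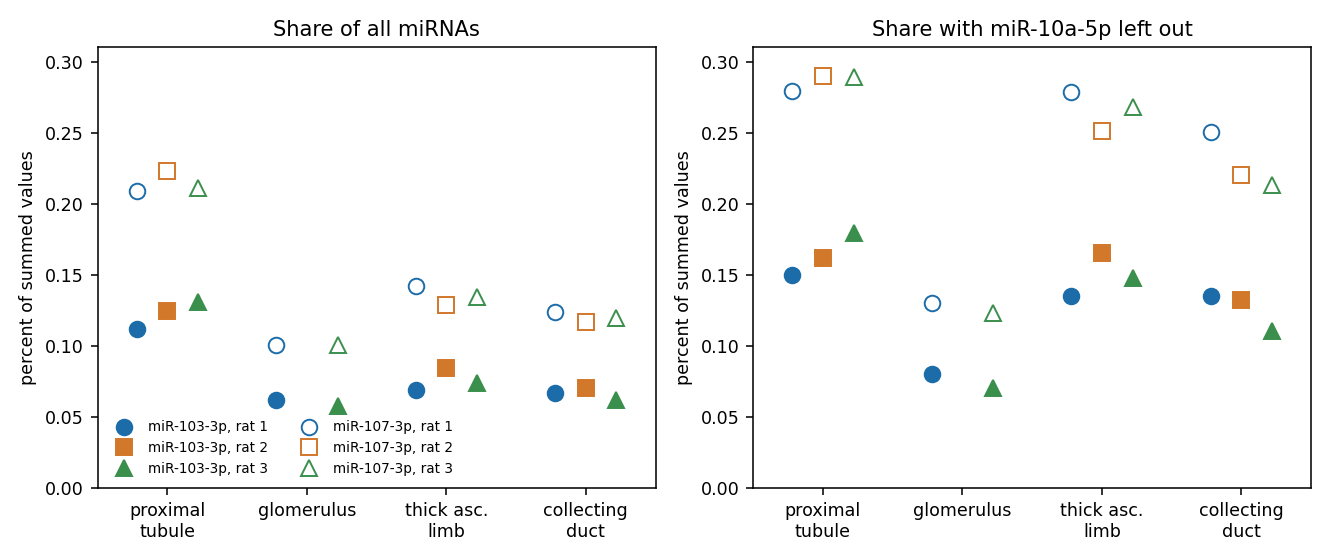
Share of miR-103-3p (filled) and miR-107-3p (open) in the summed values of each library, in percent, by segment and rat, over all 188 miRNAs (left) and with miR-10a-5p left out (right). On the left the PT is highest, at 0.209% to 0.223% for miR-107-3p, and on the right the TAL, at 0.251% to 0.278%, lies just under it while the glomerulus stays lowest.

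Refitting limma after other scalings kept the PT above the glomerulus for both miRNAs. For miR-107-3p the log2 difference was 1.08 with libraries scaled by the median of ratios, 1.11 at the same total, 1.20 at the same total without miR-10a-5p and 0.93 after quantile normalization, with limma adjusted p-values of 0.00671, 0.00487, 0.00283 and 0.0200. For miR-103-3p it was 0.96, 0.99, 1.08 and 0.83, and all but the quantile fit passed, at adjusted limma p-values of 0.0283, 0.0246, 0.0201 and 0.0671. The median of all miRNAs in this comparison moved to 0.24 by the median of ratios and at the same total and to −0.035 after quantile normalization, against 0.77 as deposited. In the same order of scalings as the p-values, limma called 29, 29, 29 and 21 of all 188 miRNAs higher in the PT, against 26 as deposited. It called 22, 21, 18 and 19 lower, against 7.

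Between PT and TAL the log2 difference was 0.14 for miR-103-3p and 0.11 for miR-107-3p at the same total without miR-10a-5p, with limma adjusted p-values of 0.819 and 0.825. At the same total of all miRNAs it was 0.69 and 0.67. The median of all miRNAs in this comparison was −0.41 and 0.071 in the same order of scalings, against 0.37 in the main fit. The difference between PT and CD passed in limma at the same total, at 0.88 for miR-103-3p and 0.83 for miR-107-3p with adjusted p-values of 0.0294 and 0.0159, and after quantile normalization, at 0.96 and 0.83 with 0.0275 and 0.0211. In this comparison limma called 25 of all 188 miRNAs higher in the PT and 13 lower at the same total. After quantile normalization it called 18 and 19, against 11 and 8 in the main fit. The difference between TAL and CD turned positive for both miRNAs under each of the 4 scalings, between 0.060 and 0.41, and passed under none. The median of all miRNAs turned as well, from −0.36 in the main fit to between 0.052 and 0.20.

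**Figure D3:**
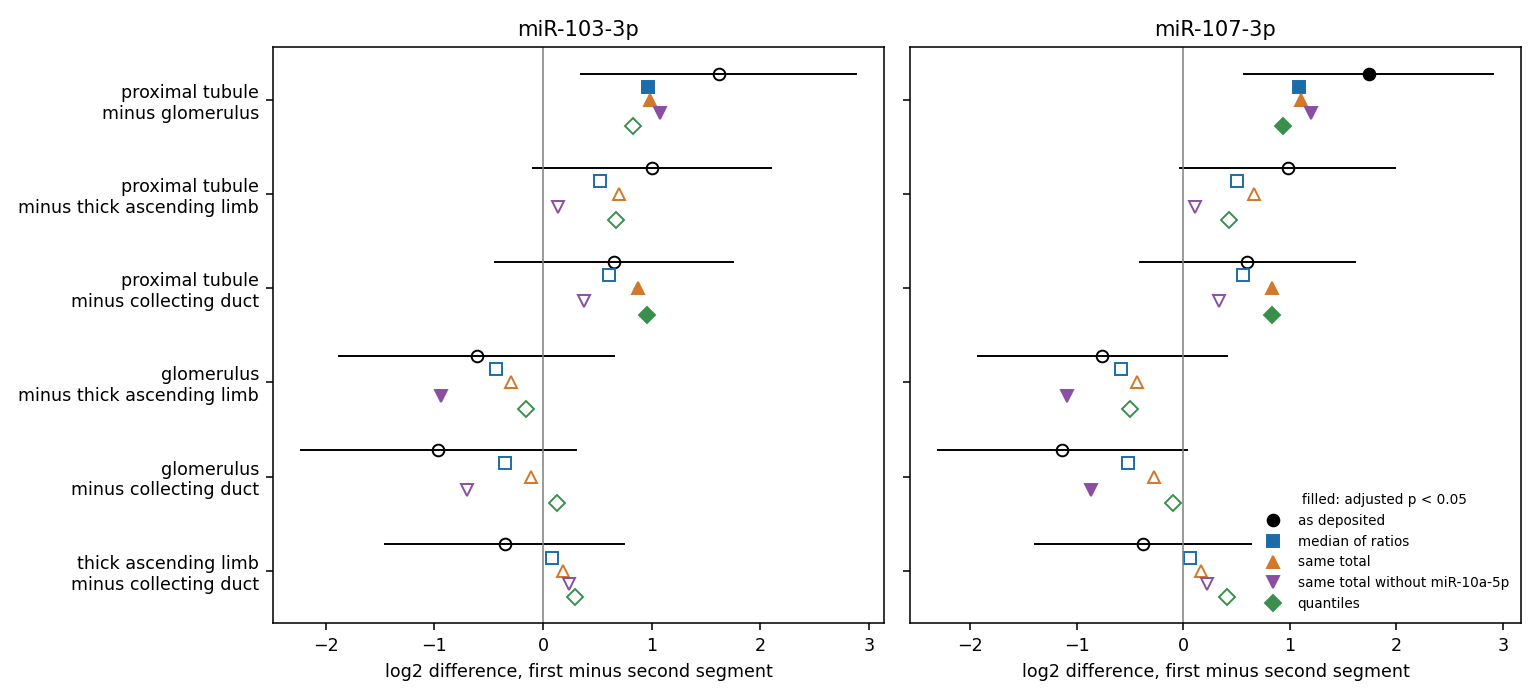
Log2 difference between segments, first minus second, of miR-103-3p (left) and miR-107-3p (right), for the values as deposited (circles, with 95% intervals) and 4 other scalings of the libraries, with filled symbols for an adjusted p below 0.05 in limma. The PT exceeds the glomerulus under every scaling shown, with 1.62 and 1.74 as deposited, and the last comparison changes sign.

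The proportion of the pair as counted, which needs no scaling between libraries, did not differ detectably between segments. It depends on how reads too short to tell the pair apart were split, which is not known. The true proportion therefore cannot be judged from it. The log2 ratio of miR-103-3p to miR-107-3p, with 1 added to each value, was −0.81 ± 0.11 in the PT (SD, n = 3), −0.74 ± 0.069 in glomeruli (n = 2), −0.84 ± 0.22 in the TAL (n = 3) and −0.86 ± 0.13 in the CD (n = 3). An exact permutation test of the segment labels within rats gave p = 0.568 over 3456 permutations. Over all 11 libraries the ratio was −0.82 ± 0.13, and miR-103-3p made up 36.2% ± 2.05 of the values of both (SD, n = 11).

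By reads, the share of miR-103-3p in the pair ranged from 32.8% (Wilson 95% interval 28.6% to 37.2%) in the TAL of rat 1 to 40.5% (36.8% to 44.2%) in that of rat 2. The lowest and the highest library thus came from the same segment. In the glomerulus it was 38.8% (36.2% to 41.5%) in rat 1 and 38.2% (32.1% to 44.6%) in rat 3. In the PT it was 34.7%, 36.1% and 38.4%, and in the CD 35.5%, 38.4% and 35.6%, in rats 1, 2 and 3. These intervals hold for counting error alone, as PCR copies 1 molecule into many reads. They do not cover the unknown split of short reads.

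**Figure D4:**
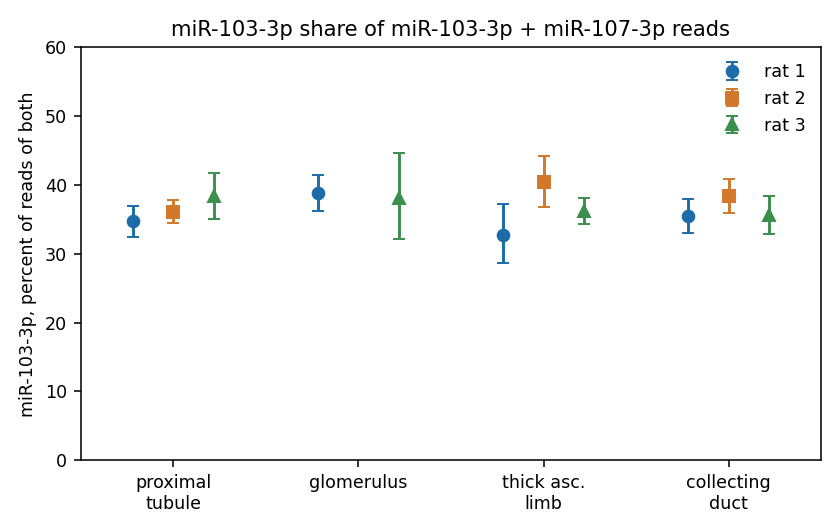
Share of miR-103-3p in the reads of miR-103-3p and miR-107-3p together, in percent, by segment and rat, with Wilson 95% intervals for counting error. The 11 libraries lie between 32.8% and 40.5% with no segment apart from the others, and the interval is widest in the glomerulus of rat 3, with 228 reads of both.

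Across the 11 libraries the values of the pair moved together, with Pearson r = 0.98 and Spearman rho = 0.98 on log2(value + 1), given as a description. The libraries share rats and scaling, and how short reads were split between the pair is not known. On shares of the summed value r was 0.95, and over the 9 tubule libraries 0.96. By the highest r among the 63 miRNAs averaging at least 100, each member's closest match was the other, followed for both by let-7g-5p, at r = 0.97 with miR-103-3p and 0.95 with miR-107-3p, and miR-21-5p, at 0.93 and 0.95. let-7b-5p (0.91 with each) and miR-328a-3p (0.90 and 0.93) completed the 5 of both. Over the tubule libraries alone, 2 other miRNAs were closer to miR-103-3p than miR-107-3p was.

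The other 4 had the same order of segment means as the pair. let-7g-5p averaged 1398 in the PT, 333 in the glomerulus, 568 in the TAL and 613 in the CD, and was higher in the PT than in the glomerulus by 2.36 ± 0.54 on the log2 scale (limma adjusted p 0.000194). miR-21-5p averaged 1230, 310, 474 and 554 in the same order of segments, and the same difference was 2.08 ± 0.55 (limma adjusted p 0.00163). let-7b-5p averaged 1308, 553, 644 and 1025 in that order, with a difference of 1.70 ± 0.54 (limma adjusted p 0.0124). miR-328a-3p averaged 243, 101, 141 and 214, with a difference of 1.30 ± 0.62 (limma adjusted p 0.132), and so lay below miR-107-3p in every segment. The limma F-test called let-7g-5p, miR-21-5p and let-7b-5p, at adjusted p-values of 0.00149, 0.00472 and 0.0340, and did not call miR-328a-3p, at 0.272.

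The motif AGCAGC, read on the mature strand within the first 8 bases, was present in 7 of the 172 matched columns (8 of the 693 RefSeq mature sequences). These were the pair and 5 miRNAs of the wider miR-15/miR-107 group, which are miR-15b-5p, miR-16-5p, miR-195-5p, miR-322-5p and miR-497-5p. In all 5 the seed is shifted against that of the pair, as the motif starts at base 2 and not at base 1. The list held 7, of which 5 were measured, and the limma F-test called 1, beside 46 of 188 (24.5%) over all miRNAs. miR-16-5p, the most abundant, averaged 1266 ± 128 in the PT, 912 ± 593 in the glomerulus, 728 ± 201 in the TAL and 650 ± 145 in the CD, so its lowest mean was in the CD and not in the glomerulus. Its difference between PT and glomerulus was 0.68 ± 0.54 (limma adjusted p 0.390).

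The called member, miR-15b-5p, was listed at 0 in both glomerulus libraries and averaged 3.29 ± 3.93 in the PT, 11.4 ± 2.39 in the TAL and 11.2 ± 7.03 in the CD, with a limma F-test adjusted p of 0.0488. miR-195-5p, miR-322-5p and miR-497-5p had segment means from 3.05 to 24.9, far under those of the pair. The median log2 difference of the 5 between PT and glomerulus was 0.68, beside 0.77 over all miRNAs.

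A list of other miRNAs known from insulin and lipid metabolism had 10 of 15 members measured, and the limma F-test called 3, miR-375-3p, miR-27a-3p and miR-27b-3p, beside 24.5% of all miRNAs. Between PT and glomerulus 7 of the 10 were higher in the PT, beside 131 of all 188, and limma called 1 higher and 1 lower, beside 26 and 7 of all 188, with a median log2 difference of 0.57 beside 0.77 over all miRNAs. miR-375-3p, known from pancreatic islets as a brake on insulin release, averaged 825 in the PT, 18.9 in the glomerulus, 589 in the TAL and 207 in the CD. It was higher in the PT than in the glomerulus by 5.16 ± 0.59 (limma adjusted p 8.8e-16). miR-27b-3p, which restrains fat cell formation, went the other way, with 3193 in the PT and 10051 in the glomerulus and a log2 difference of −1.55 ± 0.53 (limma adjusted p 0.0224). miR-27a-3p averaged 79.1 in the PT and 295 in the CD, a log2 difference of −1.93 ± 0.54 (limma adjusted p 0.00699).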

How the data were processed

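The deposited signal is read counts that the authors TMM-normalized, with miRNAs of low counts filtered out, per the name of their table. Partek 6.0, Bowtie 1.0.0, Bowtie2 2.2.5 and the genome build rn6 are named in the submitters' processing notes. Their roles and settings and the miRNA annotation are not given in the sources used here. The 44 runs used were averaged over 4 flow cells into 11 libraries. A glomerulus library that the submitters marked as removed, in 4 runs, was left out. Rats are separate animals, per the labels.

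The models were fitted in R 4.3.3 with limma 3.58.1 (lmFit, and eBayes with a variance trend) on log2(value + 1) averaged over runs, with segment and rat as terms, two-sided, with Benjamini-Hochberg adjustment at 0.05 over all 188 miRNAs. A fold change is on the log2(value + 1) scale, which understates the change of low miRNAs. Each miRNA has 5 residual degrees of freedom. With the variance shared along the trend, the tests and intervals of the pair used 940 in total. The script was tested on simulated data.

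The rat enters as a block, since the labels tie its segments to 1 animal. In 15 same-rat library pairs, departures from the segment mean correlated at a median of 0.076 (−0.22 to 0.30) over 63 miRNAs. The value of 1 read was found in 44 of 44 runs, and 88.5% to 99.0% of the values of at most 30 reads were whole to within 0.03, so no count test was run. The members, the lists and the markers were chosen with earlier results of these data known. The text names the pair, the miR-15/miR-107 list, the called members of the metabolic list, the 5 miRNAs most alike by Pearson r and the 2 above and 2 below in level. Alternatives were another pseudocount, a filter at a mean of 100, other scalings, no block or a random rat effect, no variance trend, array weights, single flow cells, the mean taken before the log, and leaving out each library or rat. Sequences came from RefSeq (GRCr8), whose coordinates are not those of rn6.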

Additional observations from a re-analysis of the deposited data

Results flagged for a closer look

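Each library was run on 4 flow cells, and in 33 sets of 4 runs (both miRNAs and their log2 ratio in 11 libraries) 5 had a run far from the others, where chance flags about 1 in 20. The measure is the gap from the odd run to its nearest neighbour, divided by the range of the 4 runs. For the log2 ratio of miR-103-3p to miR-107-3p it was 0.863 in the PT library of rat 1 (−1.09 on flow cell B, with −0.85 the nearest) and 0.875 in that of rat 2 (−0.67 on flow cell C, nearest −0.88). It was 0.844 in the CD library of rat 2 (−0.95 on flow cell D, nearest −0.67) and 0.954 in that of rat 3 (−1.59 on flow cell D, nearest −0.78). For miR-107-3p alone it was 0.861 in the TAL library of rat 2 (122 on flow cell A, nearest 155). The odd runs fell on each of the 4 flow cells. The ratio test passed on none of the flow cells alone, with exact permutation p-values from 0.162 to 0.349.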

How the results depend on the processing

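Of 237 values under other settings, 191 kept their direction and side of the threshold. Of 224 from leaving out a library or rat, 203 did so. The call for miR-107-3p between PT and glomerulus (1.74) was lost with no variance trend (1.74, limma adjusted p 0.0963), with array weights (1.77, 0.155) and on flow cell D alone (1.51, 0.130), and the cause was not tested. The PT minus glomerulus difference of miR-103-3p passed with the filter at 100 (1.62), by the median of ratios (0.96), at the same total (0.99), at the same total without miR-10a-5p (1.08), with no replicate block (1.67), with a random rat effect (1.70) and on flow cell B alone (1.67). PT minus CD passed at the same total (0.88 for miR-103-3p and 0.83 for miR-107-3p) and after quantile normalization (0.96 and 0.83). PT minus TAL passed with array weights (0.98 and 0.92) and with tubule libraries only (1.01 and 0.98). With array weights limma called 34 of all 188 miRNAs higher in the PT and 9 lower, against 13 and 2 in the main fit. Glomerulus minus TAL passed at the same total without miR-10a-5p (−0.94 and −1.09), as did glomerulus minus CD for miR-107-3p (−0.87). Of all 188 miRNAs, limma there called 11 higher and 39 lower in the glomerulus than in the TAL, against 6 and 15 in the main fit. Against the CD it called 16 higher and 32 lower, where the main fit called 7 and 21. Signs turned for glomerulus minus CD of miR-103-3p after quantile normalization (0.13). They also turned for TAL minus CD, at 0.082 and 0.060 by the median of ratios, 0.18 and 0.16 at the same total, 0.29 and 0.41 after quantile normalization and 0.24 and 0.22 at the same total without miR-10a-5p. The F-test adjusted p in limma passed for miR-107-3p by the median of ratios (0.0281), at the same total (0.0114), after quantile normalization (0.0308), with no replicate block (0.0286), with a random rat effect (0.0454), on flow cell A (0.0239) and at the same total without miR-10a-5p (0.00958). For the sum it passed at 0.0208, 0.00710, 0.0339, 0.0250, 0.0360, 0.0376 and 0.00767 in the same order, and with array weights (0.0299). For miR-103-3p it passed at the same total (0.0381). Pairing by rat, read against no replicate block, changed no other call.

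Leaving out each library or rat gave F-test adjusted p-values from 0.00143 to 0.581 for miR-103-3p, 0.000178 to 0.402 for miR-107-3p and 5.6e-05 to 0.413 for the sum. The log2 differences ran, for miR-103-3p and miR-107-3p, from 0.74 to 2.46 and 1.02 to 2.49 (PT minus glomerulus), 0.71 to 1.24 and 0.72 to 1.21 (minus TAL), and 0.35 to 0.89 and 0.41 to 0.83 (minus CD). They ran from −1.37 to 0.22 and −1.42 to −0.025 for glomerulus minus TAL, −1.73 to −0.20 and −1.81 to −0.48 for glomerulus minus CD, and −0.61 to −0.086 and −0.59 to −0.068 for TAL minus CD. The ratio of the pair kept permutation p-values from 0.162 to 0.931 over its 20 alternatives. The number of miRNAs called by the F-test was 27 without rat 2, 28 on flow cell D alone, 67 by the median of ratios and 70 at the same total, against 46. With 2 glomerulus libraries, comparisons with the glomerulus had standard errors of 0.65 and 0.60, against 0.56 and 0.52 between tubules. Fits without either glomerulus library, rat 1 or rat 3 had 1 glomerulus library left, and the ranges above include them.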
